A study of Mus musculus with 2 samples.

Results

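In single cells of mouse urothelial organoids, 10 members of the S100 family were followed: S100a1, S100a4, S100a6, S100a8, S100a9, S100a10, S100a11, S100a13, S100a14 and S100a16. They were taken by symbol, and all 10 were among the 31053 genes of the count matrices. The organoids were grown from normal mouse urothelium of C57BL/6 WT mice aged 8 to 10 weeks. The proliferative organoids (NMU-O-P, here P) were kept in complete medium. The differentiated organoids (NMU-O-D, here D) spent a week in complete medium and a further week, reseeded without disaggregation, in medium that lacked WNT3A, RSPO1, EGF and Noggin and also the TGF-β receptor inhibitor LY2157299. Both conditions therefore share the strain, the genotype and the first week of culture, and both libraries were made from unsorted, dissociated organoids. Each condition is 1 library of droplet 3′ RNA-Seq, so that condition, culture and library cannot be told apart, no test between conditions was possible, and every interval below is a 95% interval for counting error only.

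After keeping cells with over 800 genes and at most 12% mitochondrial UMIs (unique molecular identifiers, 1 per captured transcript molecule), P held 6818 cells with 26681469 UMIs and D held 4896 cells with 20305621 UMIs. The median depth per cell was 3405.5 UMIs for P and 3227.5 for D, and 6 cell barcodes occurred in both libraries. Ribosomal protein genes took 37.2% of the UMIs in P and 21.2% in D. The median log2 ratio of D over P was 0.42 over the 8939 genes that reached 100 UMIs in P and in D alike. It is called the shift of all genes below, and ratios between libraries are also given relative to it where it matters. For cell states the shift was taken anew, over the genes that reached 100 UMIs on both sides. Epithelial genes were high in both libraries, with Krt5 and Epcam found in each state described below. Of the marker lists for other cell types, the 5 dendritic and Langerhans genes summed to 3.52 CPM (UMIs per 1000000 UMIs) in P and 0.0492 in D, the 4 Schwann genes to 2.47 and 3.79 CPM with Sox10 at 0 in both, the 12 neutrophil genes to 53.6 and 31.8 CPM, mostly Ltf, and the 6 fibroblast genes to 1.99 and 62.5 CPM, mostly Dcn in D.

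S100 proteins are small calcium-binding proteins built from a pair of EF hands, and most act as dimers. On binding calcium they expose a surface that docks on targets such as annexins, non-muscle myosin and ubiquitin ligase adaptors. Most S100 genes lie beside the genes for the cornified envelope, in the epidermal differentiation complex, and several are known from stratified epithelia such as skin, oesophagus and urothelium. S100a8 and S100a9 form calprotectin, an abundant protein of neutrophils that keratinocytes also make under stress.

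All 10 genes are protein-coding genes of chromosome 3 in GENCODE annotation of GRCm38, the build the submitters' notes name. The stretch from S100a1 to S100a9 holds 8 of them within 185 kb, and S100a11 and S100a10 lie 2.82 Mb further on. S100a1 (chr3:90511034-90514392, minus strand) and S100a13 (chr3:90514435-90524581, plus strand) are head to head, with 43 bases between their starts. S100a14 (chr3:90526856-90528837) and S100a16 (chr3:90537254-90543151) follow on the plus strand, as do S100a4 (chr3:90603771-90606045), S100a6 (chr3:90612882-90624181) and S100a8 (chr3:90668978-90670035). S100a9 (chr3:90692632-90695721) is on the minus strand, and S100a11 (chr3:93520488-93526287) and S100a10 (chr3:93555080-93564643) are on the plus strand. The gene model Gm42674 overlaps S100a4 on the same strand over 2115 bases and had no UMI in either library (0 counts each), and how the counting divided reads between these models is not given in the sources used here.

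The promoter windows of 5 genes that differed between libraries or states are shown here, from 250 bases before to 50 bases after the RefSeq start, on the strand of the gene, in the RefSeq table's GRCm38.p6 build. RefSeq windows matched 8 of the 10 genes, with 2 windows for S100a16, and S100a10 and S100a14 had none. Capitals mark the letters of 3 motifs searched on both strands. The first, known as the core promoter box, was TATAAA, found in 13.6% of all 32851 promoter windows of the same length. The second was TGANTCA, a loose form of the AP-1 site with any base in the middle, found in 7.81%. The last was TTNNGNAA, as bound by C/EBP proteins, found in 40.7%. The first 3 windows belong to the genes that were higher in D, and the last 2 to genes that were higher in squamous-like than in basal-like cells of P. The window of S100a13, which was lower in squamous-like cells, is not printed because most of it is the S100a1 window on the opposite strand.
S100a1, chr3:90514281-90514580, minus strand: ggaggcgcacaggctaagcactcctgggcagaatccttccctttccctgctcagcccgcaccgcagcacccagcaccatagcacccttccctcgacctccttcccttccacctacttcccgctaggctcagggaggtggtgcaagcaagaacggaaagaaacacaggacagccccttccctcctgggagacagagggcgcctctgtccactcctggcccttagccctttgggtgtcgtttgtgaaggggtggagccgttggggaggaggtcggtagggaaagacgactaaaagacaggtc
S100a4, chr3:90603520-90603819, plus strand: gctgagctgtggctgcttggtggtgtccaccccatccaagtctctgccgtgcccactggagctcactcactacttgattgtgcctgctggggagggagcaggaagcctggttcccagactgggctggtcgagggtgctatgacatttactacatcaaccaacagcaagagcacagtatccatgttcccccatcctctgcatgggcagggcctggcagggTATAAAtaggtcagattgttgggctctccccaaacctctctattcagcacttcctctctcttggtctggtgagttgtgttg
S100a6, chr3:90612644-90612943, plus strand: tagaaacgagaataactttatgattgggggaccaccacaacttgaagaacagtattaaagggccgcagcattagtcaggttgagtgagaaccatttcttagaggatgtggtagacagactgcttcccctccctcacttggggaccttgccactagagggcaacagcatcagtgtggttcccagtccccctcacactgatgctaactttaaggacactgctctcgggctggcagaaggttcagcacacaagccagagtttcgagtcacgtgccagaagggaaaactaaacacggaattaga
S100a11, chr3:93520246-93520545, plus strand: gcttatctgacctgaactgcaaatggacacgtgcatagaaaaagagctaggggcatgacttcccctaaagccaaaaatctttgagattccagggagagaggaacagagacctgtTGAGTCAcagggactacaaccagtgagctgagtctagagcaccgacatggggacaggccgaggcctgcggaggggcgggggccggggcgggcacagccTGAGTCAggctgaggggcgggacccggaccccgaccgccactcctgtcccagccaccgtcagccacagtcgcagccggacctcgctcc
S100a16, the downstream one of its 2 windows, chr3:90540896-90541195, plus strand: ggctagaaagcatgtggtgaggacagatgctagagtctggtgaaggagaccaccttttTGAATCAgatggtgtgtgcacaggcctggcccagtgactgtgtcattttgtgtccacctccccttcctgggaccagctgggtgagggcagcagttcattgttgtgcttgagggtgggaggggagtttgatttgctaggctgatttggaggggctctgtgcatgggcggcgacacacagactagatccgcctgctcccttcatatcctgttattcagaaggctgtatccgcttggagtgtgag

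None of the 3 motifs was found in the windows of S100a1, S100a6 and S100a13 or in the upstream window of S100a16 (chr3:90537004-90537303, plus strand), and the S100a1 and S100a13 windows share 204 bases on opposite strands. TATAAA was found 31 bases before the start of S100a4, 30 bases before that of S100a8 and at the annotated start of S100a9. TGANTCA occurred 2 times in the S100a11 window, both as TGAGTCA, and 1 time in the shown S100a16 window, as TGAATCA. The calprotectin pair was where TTNNGNAA was found, 1 time for S100a8 and 2 times for S100a9. These matches describe letters in a window, and no binding was measured.

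The first comparison asks which S100 transcripts differed between proliferative and differentiated organoids. The 10 genes together made up 1.01% of all UMIs in P and 2.04% in D. S100a6 made that gap, since it held 50.5% of the family's UMIs in P and 78.7% in D, and the other members summed to 0.498% of UMIs in P and to 0.435% in D. Levels are given as CPM, which for 3′ tags is not divided by transcript length. A gene counts as higher in 1 library when its level differed at least 2-fold with at least 100 UMIs over both libraries. Of the 8 genes that met the minimum, 3 were higher in D (S100a1, S100a4 and S100a6) and 1 was higher in P (S100a14). Among all 10719 genes that met it, 13.5% passed the limit towards D and 4.73% towards P, and the median log2 ratio was 0.41 against 0.31 for the 8 S100 genes.

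**Figure D1:**
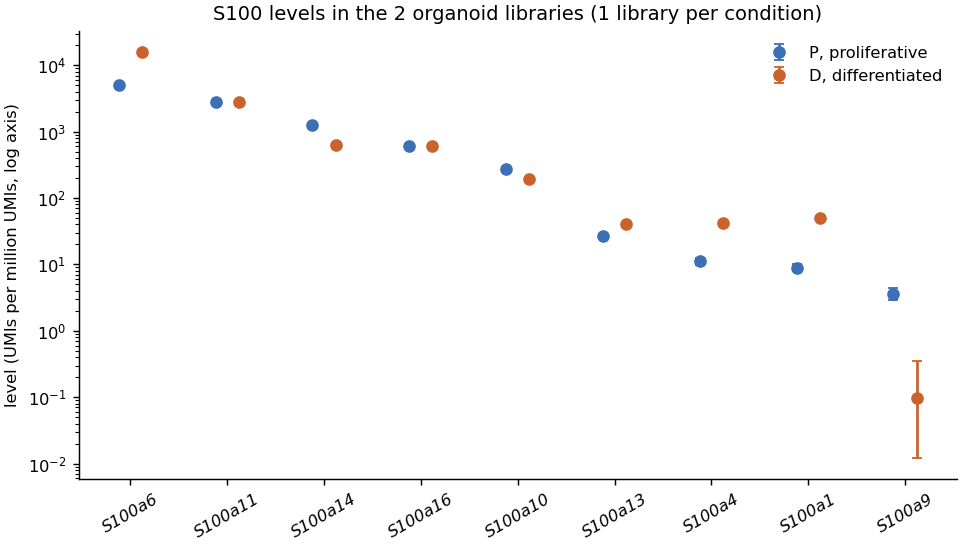
Level of 9 S100 genes in the 2 libraries, as CPM on a log axis. Points are the library level and bars the 95% counting interval, often smaller than the point. S100a6 lies at 5076 CPM in P and 16035 CPM in D, S100a11 and S100a16 overlap between libraries, and S100a9 falls to 2 UMIs in D.

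S100a6 (calcyclin), which binds annexins and the calcyclin-binding protein, was the most abundant of the family. Its level was 5076 CPM in P and 16035 CPM in D, a ratio of 3.16-fold (interval 3.14 to 3.18) or 1.66 on the log2 scale. By UMI count it ranked 47 among all genes in P and 2 in D. Per cell, after thinning every cell to 2100 UMIs, the median cell carried 9 S100a6 UMIs in P (10th to 90th percentile 3 to 20) and 30 in D (14 to 53). The middle of the cells was thus apart between libraries, with overlap in the tails. Relative to the shift of all genes the log2 ratio was 1.24.

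S100a1, a binding partner of ryanodine receptors best known from heart and skeletal muscle, had the largest ratio of the 8. Its level was 8.96 CPM in P (239 UMIs) and 49.8 CPM in D (1011 UMIs), 5.56-fold higher in D (4.82 to 6.43). S100a4 (metastasin), which binds the heavy chain of non-muscle myosin IIA, stood at 11.2 CPM in P (298 UMIs) and 42.4 CPM in D (861 UMIs), a ratio of 3.80-fold (3.32 to 4.35). Both genes were sparse, with a UMI in 1.81% and 1.96% of thinned P cells and in 8.74% and 8.13% of thinned D cells. S100a4 is also known from fibroblasts. Of their listed markers, Dcn was at 40 UMIs in P and 1234 in D, Col1a1 at 0 and 10 UMIs and Col3a1 at 0 and 19. Lum was at 7 UMIs in P and 1 in D, Pdgfra at 6 in each and Col1a2 at 0 in each. The part of fibroblasts in the S100a4 result was not tested. No cell class of these libraries is known to lack S100 transcripts, so the share that free RNA would give was not measured.

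S100a14, an epithelial member known from keratinocytes, went the other way. Its level was 1275 CPM in P and 632 CPM in D, 2.02-fold higher in P (1.98 to 2.06), close to the 2-fold limit, and relative to the shift of all genes its log2 ratio was -1.43. S100a10 (p11), the partner of annexin A2 in a heterotetramer at the plasma membrane, had 270 CPM in P and 195 CPM in D, a log2 ratio of -0.47 (-0.53 to -0.42). S100a13, which takes part in the release of fibroblast growth factor 1, had 26.6 CPM in P and 40.8 CPM in D. Its log2 ratio was 0.62 (0.47 to 0.77), and 0.20 relative to the shift of all genes, with -0.89 for S100a10. Neither reached the limit.

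S100a11 (calgizzarin), which binds annexin A1, and S100a16, a widely expressed epithelial member, were level between the libraries in CPM. S100a11 was at 2781 CPM in P and 2782 CPM in D, with an interval of the log2 ratio from -0.02 to 0.02. S100a16 was at 607 CPM in P and 610 CPM in D, with an interval from -0.03 to 0.04. Relative to the shift of all genes both lay lower in D, at -0.42 for each, so the direction for these genes depends on the scaling.

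The calprotectin genes were barely present. S100a8 had 2 UMIs in 2 cells of P and 0 UMIs in D, where a count of 0 allows a level of up to 0.148 CPM and a share of cells with a UMI, not of cells expressing the gene, of up to 0.0613%. S100a9 had 95 UMIs in P, a level of 3.56 CPM, and 2 UMIs in D, a ratio of 36.1-fold in favour of P with a counting interval from 9.74 to 303, under the minimum of 100 UMIs. The P transcripts were concentrated: 46 of 6818 cells carried any, 5 cells held 43 of the 95 UMIs, and the highest cell held 20. These 46 cells had a median of 5662 UMIs, Krt5 was detected in all 46 and Epcam in 32. Krt5 was at 3534 CPM over the whole of P, so finding it at this depth does not set these cells apart. Of the 12 listed neutrophil genes, Ltf was found in 1 of these cells and the other 11 in none. Over the whole library, 11 of the 12 neutrophil genes had under 10 UMIs in P and 11 had under 10 in D, Ltf being the exception with 1417 and 637 UMIs.

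The second question was how the levels varied between cell states within a library. States were called from genes outside the S100 family on counts thinned to 2100 UMIs, which 6638 cells of P and 4417 of D reached. A cell was basal-like with at least 3 of 10 basal genes (such as Trp63, Itga6 and Col17a1), squamous-like with at least 3 of 10 cornified envelope genes (such as Sprr2f, Crnn and Flg) and uroplakin-positive with at least 1 UMI of the 5 uroplakin genes, whose proteins form the plaques of the luminal surface. Only cells that met exactly 1 definition were used. P had 1245 basal-like, 398 squamous-like and 125 uroplakin-positive cells, and 4821 cells met no definition. D had 800 basal-like and 2201 uroplakin-positive cells and 1251 of none. In D 0 of 4417 cells were squamous-like, which allows a share of up to 0.0679% of cells with at least 3 of these genes detected at this depth. Single squamous genes were still present in D. Ivl was at 124 CPM in P and 206 CPM in D and Lor at 10.5 and 11.7 CPM, while the other detected genes of the list were lower in D.

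These states are ranges of a score, not sharp types, and many cells lay at the limits. In P, 803 cells had exactly 3 basal genes and 1387 had 2, 300 had exactly 3 squamous genes and 645 had 2, and 129 cells had exactly 1 uroplakin UMI. In D, 422 cells had exactly 3 basal genes and 713 had 2, and 804 had exactly 1 uroplakin UMI. The median basal-like cell of P had 3 basal genes, 0 squamous genes and 0 uroplakin UMIs, the median squamous-like cell had 0, 3 and 0, and the median uroplakin-positive cell had 0, 1 and 1. In D the median uroplakin-positive cell had 0 basal genes, 0 squamous genes and 3 uroplakin UMIs. Median depth rose from basal-like to the other states, from 3030 to 4193 (squamous-like) and 3928 (uroplakin-positive) UMIs in P and from 2975 to 3700 in D, and the part of depth in the differences below was not tested. The squamous gene Sprr1b had 0 UMIs in both libraries.

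**Figure D2:**
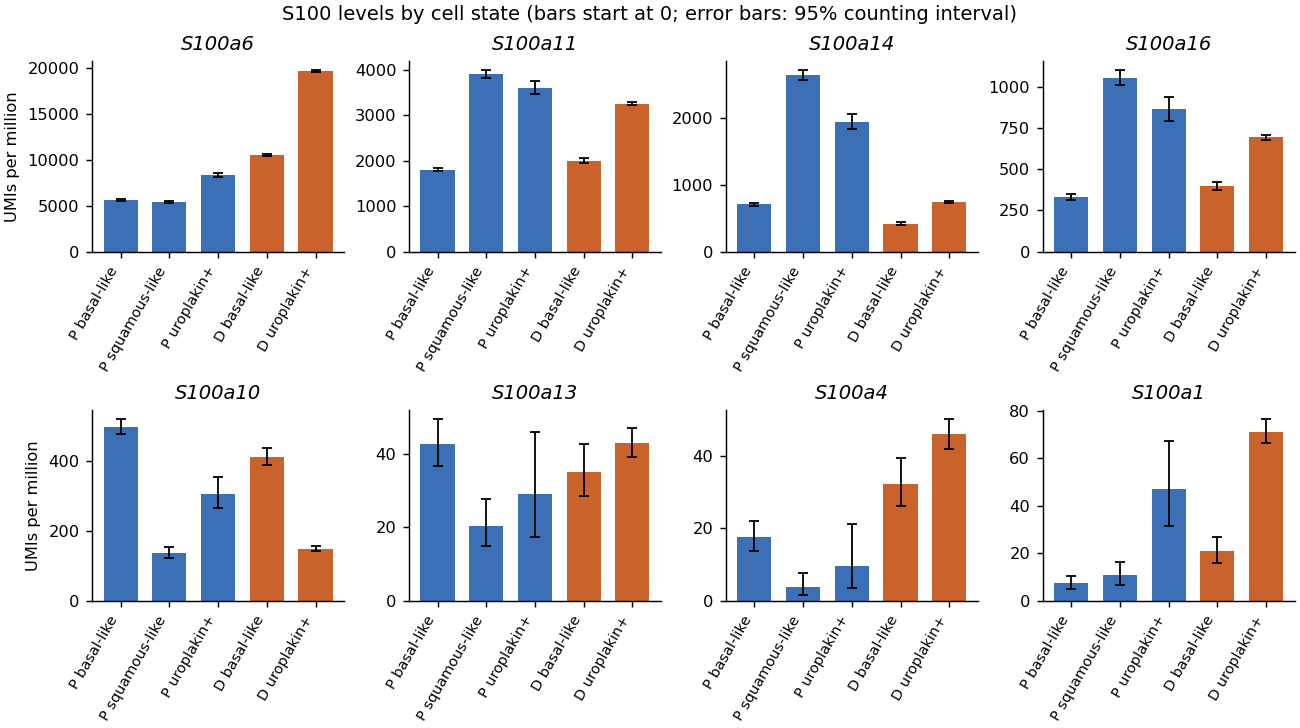
Level of 8 S100 genes in each cell state, in CPM of that state, with bars from 0 and 95% counting intervals. Blue bars are P and orange bars D. S100a11, S100a14 and S100a16 are lowest in basal-like cells, S100a10 is highest there, and S100a6 peaks in the uroplakin-positive cells of D at 19657 CPM.

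In P, 3 genes were at least 2-fold higher in squamous-like than in basal-like cells and 2 at least 2-fold lower, of 6 with at least 100 UMIs over both states. Among 5503 genes that met the same minimum, 7.72% were at least 2-fold higher and 14% at least 2-fold lower. The family's share of UMIs was 0.901% in basal-like and 1.32% in squamous-like cells. S100a14 was at 709 CPM in basal-like and 2651 CPM in squamous-like cells, 3.74-fold higher (3.57 to 3.91). The median thinned cell held 1 S100a14 UMI in the basal-like state and 5 in the squamous-like state, and 70.3% and 99.0% of cells held any. S100a16 went from 331 to 1054 CPM, 3.18-fold (2.97 to 3.40), and S100a11 from 1807 to 3911 CPM, 2.16-fold (2.10 to 2.23). The shift between these states was 0.06, a median taken from the 1896 genes that reached 100 UMIs on both sides. Relative to this shift, S100a11 was at a log2 ratio of 1.05. Without mitochondrial and ribosomal protein genes S100a11 was at 0.95, under the limit, whereas S100a14 and S100a16 stayed past the limit under both scalings.

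S100a10 and S100a13 were on the other side. S100a10 was at 497 CPM in basal-like and 137 CPM in squamous-like cells, 3.62-fold lower, with a log2 ratio of -1.86 (-2.04 to -1.67), and a UMI was found in 59.2% against 22.4% of thinned cells. S100a13 was at 42.9 and 20.5 CPM, on 182 and 42 UMIs, with a log2 ratio of -1.06 (-1.58 to -0.57). S100a6, in contrast with its large change between libraries, was at 5596 CPM in basal-like and 5425 CPM in squamous-like cells, a log2 ratio of -0.04. S100a4 was too sparse for the count, with 75 UMIs in basal-like and 8 in squamous-like cells. S100a9 had 14 UMIs in squamous-like cells, 2 in basal-like cells and 78 in cells of no state.

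Uroplakin-positive cells of P, set against basal-like cells, showed 2 genes at least 2-fold higher and 0 lower of 6 that met the minimum, where 6.38% of 4747 genes were higher and 10.4% lower. The higher genes were S100a14, at 1951 CPM and 2.75-fold (2.57 to 2.94), and S100a16, at 862 CPM and 2.60-fold (2.35 to 2.88). S100a11, at 3615 CPM, fell just short of the limit, with an interval of the log2 ratio from 0.93 to 1.07. S100a6 reached 8287 CPM, a log2 ratio of 0.57 (0.52 to 0.61), and S100a10 306 CPM, a log2 ratio of -0.70 (-0.92 to -0.48). S100a1 had 29 UMIs in these 125 cells and 31 in the 1245 basal-like cells, 47.0 against 7.30 CPM, too few for the count.

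Between squamous-like and uroplakin-positive cells of P, a smaller share of the genes that met the minimum passed the limit. The minimum is harder to reach in these 2 smaller states, so the gene sets differ from those of the contrasts with basal-like cells. Only S100a10 passed the limit of the 5 genes that met the minimum, 2.23-fold higher in uroplakin-positive cells (1.84 to 2.69), and 0 genes were at least 2-fold lower. Of 2644 genes, 1.29% were higher and 1.55% lower. S100a6 was also higher in uroplakin-positive cells, with a log2 ratio of 0.61 (0.56 to 0.66). S100a14 was lower there at -0.44 (-0.53 to -0.35) and S100a16 at -0.29 (-0.43 to -0.15). S100a1 was at 47.0 CPM there and 10.8 CPM in squamous-like cells, on 29 and 22 UMIs, too few for the count.

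In D, uroplakin-positive cells were set against basal-like cells, and 8 genes met the minimum. S100a1 was at least 2-fold higher and S100a10 at least 2-fold lower, beside 6.20% and 5.41% of 8539 genes. S100a1 was at 71.2 CPM in uroplakin-positive and 20.9 CPM in basal-like cells, 3.41-fold (2.62 to 4.52), and S100a10 at 148 against 411 CPM, 2.78-fold lower, with a log2 ratio of -1.47 (-1.58 to -1.36). S100a6 was at 19657 against 10474 CPM, a log2 ratio of 0.91 (0.89 to 0.93), with a median of 38 against 20 UMIs per thinned cell. S100a14, S100a16 and S100a11 kept the sign they had in P but stayed under the limit, at 0.84, 0.81 and 0.70. S100a4 was at 0.51 (0.19 to 0.84), and the interval of S100a13, at 0.30, reached from -0.02 to 0.62.

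**Figure D3:**
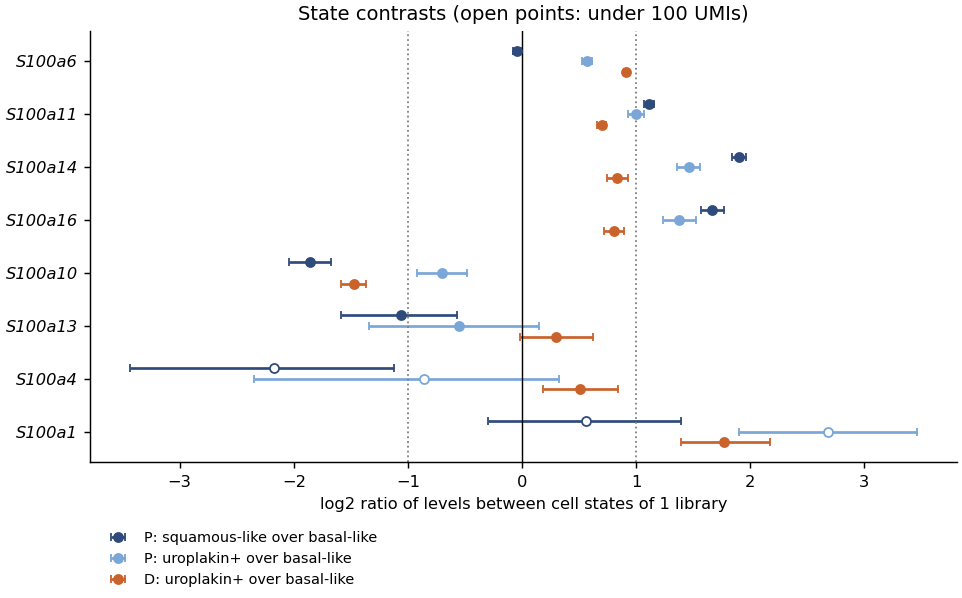
Log2 ratio of levels between cell states of 1 library for 8 S100 genes, with 95% counting intervals. Filled points had at least 100 UMIs over both states and dotted lines mark 2-fold. S100a14, S100a16 and S100a11 lie to the right and S100a10 to the left in all 3 contrasts, whereas S100a6 is near 0 only for squamous-like over basal-like cells of P.

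Levels were also followed along the marker counts that define the states. These are the same cells and markers, so the gradients are no separate check of the contrasts. In P, from cells with 0 basal genes to cells with 4 or more, S100a10 went from 153 to 551 CPM. Over the same cells S100a14 went from 1788 to 664 CPM, S100a16 from 838 to 298 CPM and S100a11 from 3540 to 1719 CPM, each lower at every step. S100a6 moved little, from 4991 to 5914 CPM. Along the squamous genes of P, from 0 to 4 or more, S100a14 went from 904 to 2878 CPM and S100a16 from 456 to 1147 CPM. In D, from cells with 0 uroplakin UMIs to cells with 8 or more, S100a6 went from 12016 to 26206 CPM and S100a1 from 24.0 to 118 CPM, higher at every step.

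S100a10 did not follow a line along the uroplakin UMIs of D. It was at 254 CPM in cells with 0, at 122 CPM with 1 and at 123 CPM with 2 or 3. With 4 to 7 it was at 147 CPM, and the 361 cells with 8 or more held 283 CPM (260 to 308), above the cells with 0. The cells at both ends of the axis thus held more S100a10 than those between. Median depth rose along this axis, from 3029 to 4411 UMIs.

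**Figure D4:**
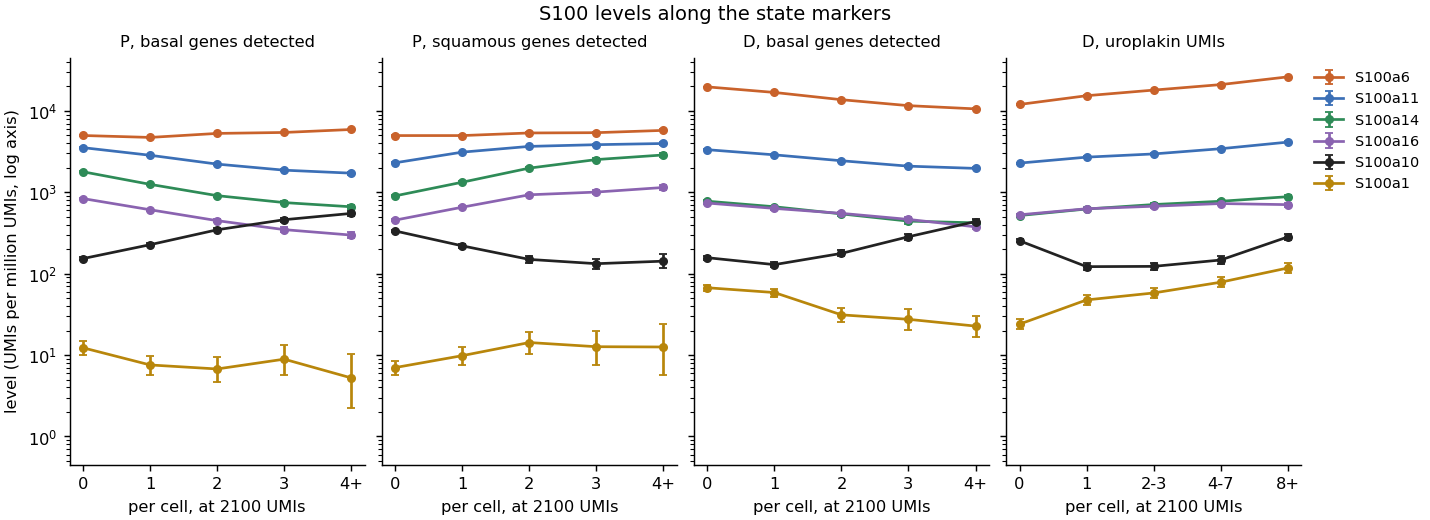
Level of 6 S100 genes, in CPM on a log axis, in cells grouped by how many basal or squamous genes or uroplakin UMIs they held at 2100 UMIs, with 95% counting intervals. S100a10 runs against S100a14, S100a16 and S100a11 along the basal genes, and in D it is at 254 CPM at 0 uroplakin UMIs, 122 CPM at 1 and 283 CPM at 8 or more.

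The libraries were then compared within states, to see whether the differences between them were also present in cells of the same call. S100a6 was higher in D in each: in basal-like cells at 5596 CPM in P and 10474 CPM in D, a log2 ratio of 0.90 (0.88 to 0.93), in cells of no state at 1.43 (1.42 to 1.45) and in uroplakin-positive cells at 1.25 (1.21 to 1.29). In CPM all 3 were below the ratio of 1.66 between the whole libraries. Relative to the shift the uroplakin-positive cells were at 1.30 and the whole libraries at 1.24. These shifts come from 647 and 8939 genes, so the 2 values are not on the same basis. S100a14 was lower in D in each, at -0.77 (-0.86 to -0.67) in basal-like cells, -1.09 in cells of no state and -1.39 (-1.48 to -1.30) in uroplakin-positive cells. The median shift was 0.42 in basal-like cells, 0.47 in cells of no state and -0.05 in uroplakin-positive cells. It was taken over the 3495, 5364 and 647 genes with at least 100 UMIs in both libraries there. Both S100a6 and S100a14 kept their sign relative to it.

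S100a1 and S100a4 were higher in D within each state too, on fewer UMIs. S100a1 had log2 ratios of 1.52 in basal-like cells (60 UMIs in D and 31 in P), 1.74 (1.39 to 2.10) in cells of no state and 0.60 (0.07 to 1.19) in uroplakin-positive cells. S100a4 had 0.87 (0.42 to 1.33), 2.06 (1.78 to 2.35) and 2.24 (1.11 to 3.70), the last on 6 UMIs in P. S100a10 was at -0.27 in basal-like, -0.53 in no-state and -1.05 (-1.27 to -0.82) in uroplakin-positive cells. In CPM, S100a11 and S100a16 differed in sign between states, at 0.15 and 0.26 in basal-like cells and at -0.15 and -0.32 in uroplakin-positive cells. Relative to the shift taken within each state, both were lower in D in each of these states. S100a11 was then at -0.27 in basal-like and -0.10 in uroplakin-positive cells, and S100a16 at -0.17 and -0.26. S100a13 had intervals across 0 in both states and a ratio of 0.73 (0.47 to 0.98) in cells of no state. Relative to the shift within each set of cells it was at -0.71 in basal-like, 0.62 in uroplakin-positive and 0.26 in no-state cells. Uroplakin-positive cells of the 2 libraries differed in their uroplakin content, with a median of 1 UMI in P and 3 in D. Basal-like cells were not alike either, with Trp63 at 326 CPM in P and 169 CPM in D and Krt8 at 99.1 and 554 CPM. Of the listed basal genes, Trp63, Itga6, Itga3 and Col17a1 were lower in D over the whole library and the others higher. The same call thus drew on different genes in the 2 libraries.

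**Figure D5:**
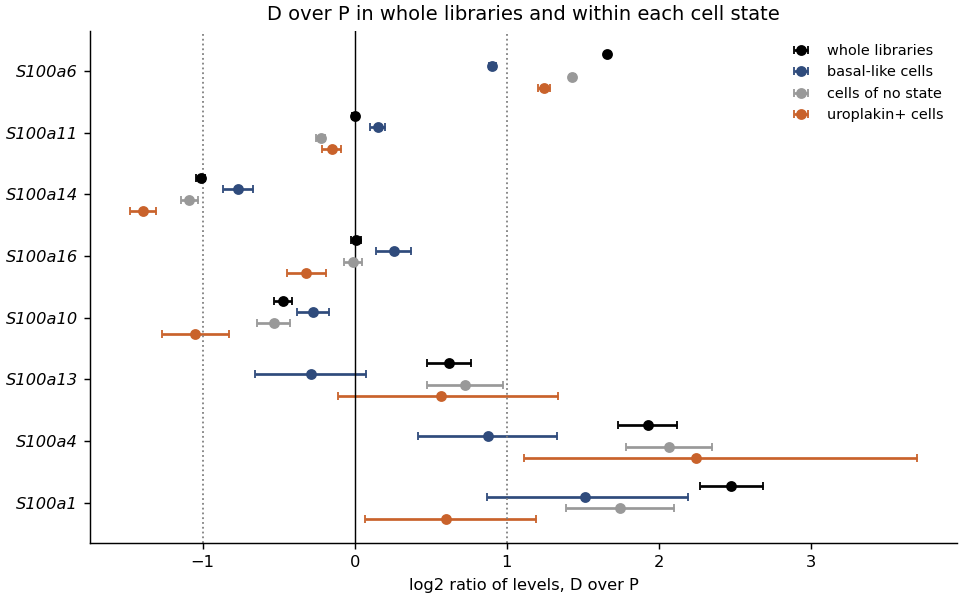
Log2 ratio of levels, D over P, for 8 S100 genes in whole libraries and within each state, with 95% counting intervals and dotted lines at 2-fold. S100a6, S100a4 and S100a1 lie above 0 and S100a14 and S100a10 below 0 in every set of cells shown. S100a11 and S100a16 change sign between basal-like and uroplakin-positive cells in CPM, but not relative to the shift taken within each state.

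Cycling cells, those with at least 2 of 12 mitotic genes, numbered 316 in P and 13 in D. In the 316 P cells S100a10 was at 604 CPM, S100a14 at 673 CPM, S100a16 at 412 CPM and S100a11 at 2084 CPM. These levels lie near those of basal-like cells of P, and 109 of the 316 cycling cells were also basal-like. S100a1 had 3 UMIs in them.

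Of the 8 other S100 genes of the matrices, 3 met 100 UMIs over both libraries, with 2 of these past the limit towards D and 0 towards P. Among all genes that met it, 13.5% were past the limit towards D and 4.73% towards P. S100g (calbindin-D9k), a calcium carrier of intestine and kidney on the X chromosome, was at 27.4 CPM in P and 222 CPM in D, 8.08-fold higher (7.47 to 8.75). The difference was larger in basal-like cells, at 9.65 CPM in P and 261 CPM in D. Along the uroplakin UMIs of D the S100g level went from 307 CPM at 0 to 24.4 CPM at 8 or more, the opposite of S100a6. In P it was level from 26.7 CPM at 0 to 27.6 CPM at 1, the latter on 17 UMIs. The group of 42 cells with 2 or more was at 127 CPM, on 28 UMIs. Few cells carried these transcripts: in the 125 uroplakin-positive cells of P, 39 S100g UMIs lay in 6 cells. S100a3, a hair cuticle protein, was at 29.8 and 68.6 CPM, 2.31-fold higher in D (2.11 to 2.52), and in P at 4.94 CPM in basal-like, 75.3 in squamous-like and 81.0 in uroplakin-positive cells. Between libraries its log2 ratio was 0.78 relative to the shift of all genes and 0.87 without mitochondrial and ribosomal protein genes, both under the limit. S100g stayed past it, at 2.59 and 2.68. S100a2 was level at 10.8 and 10.6 CPM. S100a5, S100a7a, S100a7l2, S100b and S100z had 50 UMIs or fewer in each library. The S100a3 gene model spans that of S100a2, and how shared reads were counted is not given in the sources used here.

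The same counts held 13 listed partners, targets and receptors of S100 proteins. Between libraries, 12 met the minimum and 1 was called, beside 13.5% of all genes called towards D and 4.73% towards P. It was Myh9, the myosin heavy chain bound by S100a4, at 97.4 CPM in P and 215 CPM in D, 2.21-fold (2.10 to 2.32). Its log2 ratio was 0.72 relative to the shift of all genes and 0.81 without mitochondrial and ribosomal protein genes, both under the limit. The median log2 ratio of the 12 partners was 0.63, beside 0.41 for all genes. Between squamous-like and basal-like cells of P, 2 of 9 were at least 2-fold higher and 3 lower, beside 7.72% and 14% of all genes. Anxa1, the annexin that S100a11 binds, was higher, at 1615 against 253 CPM (6.38-fold), as was Anxa2, the partner of S100a10, at 925 against 371 CPM (2.49-fold). S100a11 and Anxa1 were thus higher in the same state, whereas S100a10 and Anxa2 were higher in opposite states. Anxa5, Anxa6 and Myh9 were the lower ones, with log2 ratios of -3.05, -2.07 and -1.74.

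In uroplakin-positive cells of P, Anxa1 was higher than in basal-like cells (5.01-fold) and Anxa5 lower (log2 ratio -1.32), of 9 partners that met the minimum. Of all genes, 6.38% were higher and 10.4% lower. Against squamous-like cells 0 of 7 partners passed the limit in either direction, beside 1.29% of all genes higher and 1.55% lower. In D, 2 of 11 were higher in uroplakin-positive than in basal-like cells, Anxa1 at 4.70-fold and Anxa11 at 3.27-fold, and 3 were lower, Anxa5, Anxa6 and S100pbp. Of all genes, 6.2% were higher and 5.41% lower. Anxa2 was at 647 CPM in uroplakin-positive and 743 CPM in basal-like cells of D, a log2 ratio of -0.20. The receptors were low, Ager at 22 UMIs in P and 13 in D and Tlr4 at 77 and 106.

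Finally, the genes whose levels ran most like each S100 gene across cells were listed for the 6 members with at least 500 UMIs in each library. Likeness was the lower of the Pearson correlations in P (6638 cells) and D (4417 cells) on thinned counts, over 4326 genes, as a description, since cells of a library share its depth and free RNA. S100a6 was nearest to Tmsb4x, the actin-binding thymosin beta 4, at 0.25 in P and 0.29 in D. S100a10 was nearest to the basal keratin Krt14, at 0.37 and 0.33, followed by Col17a1, a collagen of hemidesmosomes that is also in the basal list. S100a11 and S100a14 were both nearest to Psca, a surface protein of differentiated urothelium, at 0.34 and 0.36 and at 0.44 and 0.24. S100a16 was nearest to Gsta4, a glutathione transferase, at 0.33 and 0.25. For S100a13 no gene came above 0.05 in both libraries.

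Among the members themselves the correlations were of similar size. S100a11, S100a14 and S100a16 ran together in each library, at 0.28 to 0.30 in P and 0.12 to 0.18 in D. S100a10 ran against each of them in P, at -0.15 with S100a11, -0.14 with S100a14 and -0.12 with S100a16, and near 0 in D. S100a6 and S100a11 were at 0.13 in P and 0.37 in D, the highest value of any pair of members in either library.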

How the data were processed

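Single-cell RNA-Seq (10x Chromium 3′ v3) was made from 1 P and 1 D culture. The authors deposited raw UMI counts per gene and barcode; the submitters' processing notes name bcl2fastq 2.19.0, Cell Ranger 3.0.2 and GRCm38/mm10. The 10 members and all gene lists were chosen with earlier results of these data known. The study's stated filter (over 800 genes, at most 12% mitochondrial UMIs) left 6818 of 8194 P barcodes, fewer than the study gives, and 4896 of 6975 in D, as the study gives. UMIs were summed per library or state and scaled to CPM, so that ribosomal and mitochondrial content affects all levels. Intervals (95%) are exact Poisson for levels, Clopper-Pearson for shares and conditional binomial for ratios. They cover counting error only, and limits on a count of 0 use 3 counts. The ratio interval was tested on simulated Poisson counts, the model it assumes. That test cannot show how it fares when UMIs are concentrated in few cells. States were called on counts thinned to 2100 UMIs, and 180 P and 479 D cells below that depth were left out. Doublets were kept: Scrublet called 0 cells in both libraries, so its threshold gave no usable call. Named genes are all members, 8 other S100 genes, 13 partners and, per member with at least 500 UMIs in each library, the 3 most alike genes, of which the first are printed. Motifs were searched with python 3.11.15; counts were read with scipy 1.17.1 and scanpy 1.11.5 ran Scrublet. Alternatives covered scaling, cell filters, doublets, state limits, depth, averaging and the UMI minimum.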

Additional observations from a re-analysis of the deposited data

Results flagged for a closer look

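Barcodes that failed the cell filters were in no comparison, yet they held S100 transcripts above the limit that a count of 0 allows. In the 1376 left-out barcodes of P the 10 genes made up 7466 UMIs per 1000000 non-mitochondrial UMIs, against 10692 in kept cells. In the 2079 left-out barcodes of D they made up 9243, against 21953 in kept cells. S100a6 led in both, at 4086 on the same scale in P and 7011 in D.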

How the results depend on the processing

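No paired analysis was possible because each condition is 1 library. Of the log2 ratios of members with the minimum of UMIs, none that passed 2-fold changed sign under any alternative (S100a4, with 6 UMIs in uroplakin-positive and 8 in squamous-like cells of P, went from 1.31 to -0.12 on unthinned counts), and the number of genes at least 2-fold higher in D was 3 throughout. At least 2-fold higher in P were 0 genes with over 500 genes and at most 20% mitochondrial UMIs, 0 without the 5% of cells with the most UMIs and 0 with a mean over cells, where S100a14 lay just under 2-fold, at -0.97 and -0.98 under the latter pair; with a minimum of 20 UMIs 2 genes passed and with none 3, since S100a9 and S100a8 then entered. Higher in uroplakin-positive than basal-like cells of D were 2 genes when scaled by the median ratio (S100a6 at 1.06). Higher in uroplakin-positive than squamous-like cells of P were 0 genes with at least 4 squamous genes, 0 with states called on unthinned counts and 2 with at least 2 uroplakin UMIs. Against basal-like cells of P the higher genes were 4 with at least 2 uroplakin UMIs and 1 on unthinned counts, where 1 was also lower. Lower in squamous-like than basal-like cells of P was 1 gene with cells of several states counted in each and 1 with a mean over cells, where S100a13 lay at -0.95 and -0.97. Higher in squamous-like than basal-like cells of P were 2 genes in place of 3 without mitochondrial and ribosomal protein genes, with at least 2 basal genes and on unthinned counts, and lower were 3 in place of 2 with at least 2 squamous genes and on unthinned counts. With at least 4 basal genes, 3 in place of 2 were higher in uroplakin-positive than basal-like cells of P. Of the 116 recomputed counts of members, 95 were equal to the value reported, 14 differed by over 1.5 times and 7 by up to 1.5 times. Over all genes, those higher in D and in P went from 1442 and 507 to 605 and 927 when scaled by the median ratio and to 699 and 821 without mitochondrial and ribosomal protein genes. Ratios of S100a11 and S100a16 between libraries changed sign under 5 of 10 alternatives, S100a6 between squamous-like and basal-like cells under 2 of 12. Leaving out the 6% of cells with the highest Scrublet score, chosen after seeing the data because Scrublet called 0 cells, left each count of members as it was, except that 3 and not 2 genes were higher in uroplakin-positive than basal-like cells of P. Depth limits S100a1, S100a4, S100a8 and S100a9 within states of P.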
